A study of Mus musculus with 23 samples.

Results

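The change in gene expression between postnatal weeks 2 and 3 in the mouse prefrontal cortex was read from 10 of the 23 arrays of a developmental series. The members were chosen by sample title: all 4 arrays of week 3 against all 6 of week 2. Every animal was a male C57BL/6 mouse born in the submitters' colony to wild-type breeders, the labels give no treatment, and 1 array was run per animal. The tissue was the front of the brain, taken with a coronal cut behind the frontal pole. The week 3 animals carried the numbers 2, 3, 5 and 6, and their values are given below in that order. The week 2 animals 3, 4, 5 and 6 were titled batch 1, like all of week 3, and the week 2 animals 1 and 2 were titled batch 2. For week 2 animal 5 the description names batch 2, and the title was followed. Ages are given in whole weeks, with no record of the state of the eyes.

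Mouse pups open their eyes around the end of the second postnatal week and begin to leave milk for solid food in the week that follows. In the cortex, late-born neurons finish growing axons and dendrites, synapses multiply, oligodendrocytes wrap axons in myelin, and the fast-spiking interneurons that use parvalbumin mature. Growth cone proteins, enzymes of DNA replication and carriers of milk-derived fuels are known to decline over this period in rodent brain, while myelin proteins and the ion channels of fast firing increase.

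Values are on a log2 scale, so a difference of 1 is a 2-fold difference. The label of the tissue was checked against markers. The cortical transcription factor Tbr1 ranged from 8.45 to 9.65 over the 10 arrays and Lmo4 from 10.16 to 11.002, whereas the choroid plexus marker Kl ranged from 2.27 to 2.46 and the haemoglobin gene Hba-a1 from 2.43 to 2.56. Other markers of choroid plexus and blood were higher: Folr1 ranged from 4.96 to 5.36, Ttr, the carrier of thyroid hormone that choroid plexus secretes, from 4.22 to 7.20, and the erythroid gene Alas2 from 5.45 to 8.03. The part of choroid plexus and blood in the results was not tested. Genes of the striatum, which lies behind the cortex of the frontal pole, were present too: the mean over 16 striatal genes was 7.61 to 8.94 on the week 2 batch 1 arrays, 7.66 to 8.61 on the batch 2 arrays and 8.51 to 9.07 at week 3. The lowest striatal means were those of week 2 animals 2 and 6. All 10 arrays were of 1 chip lot and had medians between 6.24 and 6.27. The scan days, numbered in time order, differed between the ages. Week 3 was scanned on day 6, the week 2 batch 1 animals on days 3 and 4, and the week 2 batch 2 animals on day 7. Counted from the first scan of the series, batch 1 was scanned after 105 and 117 days, week 3 after 175 and batch 2 after 308. The week 2 batch 2 arrays were thus the late ones of their age, but farther in time from week 3 than batch 1 was. The fluidics protocol recorded for them was another version than that of week 3. RNA integrity was compared through beta-actin, whose 3 prime probe set exceeded the 5 prime one by 1.18 ± 0.08 (SD, n = 4) on the week 3 arrays, by 1.37 to 1.51 on the week 2 batch 1 arrays and by 0.90 to 1.08 on the batch 2 arrays. The difference of the group means, -0.10, was not called by an exact permutation test (two-sided p = 0.419; the smallest p that 4 against 6 arrays allow is 0.00952). Within batch 1 all 4 week 3 values lay below all 4 of week 2, a difference of -0.24 (exact permutation test, two-sided p = 0.0286, the smallest that 4 against 4 arrays allow), so this measure of integrity differed between the ages there.

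Across the array, 2570 of 16103 tested probe sets (16%) differed between the ages at an adjusted p under 0.05 in a limma fit with batch as a term. Of these, 1074 (6.67% of all) were higher and 1496 (9.29%) lower at week 3; after each array was centred on its median the split was 1357 higher and 1056 lower. Taking for each gene its brightest probe set, 1402 of 9198 genes were called (15.2%), 518 higher (5.63%) and 884 lower (9.61%). Within batch 1, against the 4 week 2 arrays of earlier scan days, 1421 genes were called (15.4%). The 2 week 2 batch 2 arrays were scanned later than week 3. Against them, 737 genes (8.01%) and 1245 probe sets (7.73%) were called, 404 genes higher (4.39%) and 333 lower (3.62%). That probe set count was 298 without week 2 animal 1 and 893 to 995 without each of the other 5 arrays. With animal 1 or 2 left out, the lone batch 2 array was assumed to vary like the other groups. Of the genes called against all of week 2, 108 were called higher (1.17% of all genes) and 250 lower (2.72%) against batch 2 as well. Both comparisons use the same 4 week 3 arrays, and the fit against all of week 2 includes the 2 batch 2 arrays. Among the 518 genes called higher the median change was 0.57 against all of week 2 and 0.26 against batch 2, and among the 884 called lower it was -0.40 and -0.32. The median over all genes was -0.03 against all of week 2 and 0.01 against batch 2. The 4 and the 6 arrays did not overlap in 378 genes that were higher at week 3 (4.11%) and 668 that were lower (7.26%). The 15 risers and 15 fallers named first were chosen from called genes without overlap. Their lack of overlap is thus no separate support. Dcx, Rrm2, Slc16a1, Mal, Pvalb and Cacnb4 are among them. The 2 week 2 batches also differed from each other, in 574 genes (6.24%). Age and scan day cannot be told apart for week 3, which shares its scan day with no other age, so the main changes below are given against both week 2 references. A called gene whose change is given once, against all of week 2, was called in the same direction against batch 2 unless stated. A change against all of week 2 is the fitted age difference beside the batch term, which week 5 also helps to estimate. It is not a difference of plain means and can lie outside the 2 differences by batch. For Epop it was 1.22, where the change was 1.12 against batch 1 and 1.000 against batch 2. Folds are taken from the fitted change.

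Genes of immature neurons and growth cones formed the list with the largest share of members called lower. Of 36 listed genes 35 were measured, and of these 18 fell and 2 rose, where 9.61% of all genes fell and 5.63% rose. Of the 18, 17 were also called lower against week 2 batch 2. The list's median change was -0.48 against all of week 2 and -0.65 against batch 2. Doublecortin (Dcx) binds microtubules in migrating neurons. Dcx read 7.03, 7.003, 7.64 and 7.81 at week 3, 8.37, 8.32, 8.44 and 8.17 in week 2 batch 1 and 8.75 and 8.27 in batch 2. The 4 week 3 values lay below all 6 of week 2, and the fitted change was -1.13 against all of week 2 (SE 0.27; adjusted p = 0.00751) and -1.14 against batch 2 alone (adjusted p = 0.0274). Gap43, a membrane protein of growth cones, had nearly equal levels in the 4 week 3 animals. The week 2 batch 1 levels of Gap43 were 11.67, 11.65, 11.68 and 11.75, those of batch 2 were 12.03 and 12.14, and those of week 3 were 11.07, 11.14, 11.14 and 11.13. Week 3 was lowest, batch 1 in the middle and batch 2 highest, with no overlap between the 3 groups. The fall of Gap43 was 0.63 on the log2 scale, 1.55-fold (SE 0.11; adjusted p = 0.000882).

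The collapsin response mediator family holds cytosolic proteins that act downstream of semaphorins in growing axons. Dpysl5, Dpysl3, Crmp1 and Dpysl4 of this family were called lower, where 9.61% of all genes were. Other members of the family are not described here. Levels of Dpysl5 were 7.21, 7.42, 7.46 and 7.45 in the week 3 animals, against 8.47, 7.86, 8.20 and 8.47 in batch 1 and 9.53 and 9.57 in batch 2 of week 2. The change of Dpysl5 was -1.10 against all of week 2 (SE 0.27; adjusted p = 0.0081) and -2.17 against batch 2 alone (adjusted p = 3.15e-05), so the fall was larger against the batch 2 arrays. Dpysl3 changed by -1.26 against all of week 2 (SE 0.31; adjusted p = 0.00795) and -2.05 against batch 2 alone (adjusted p = 0.000725). Crmp1 changed by -0.85 (adjusted p = 0.00127) and Dpysl4 by -0.77 (adjusted p = 0.000845), and in both genes no week 3 array reached the lowest week 2 array. Cd24a, a surface glycoprotein of young neurons, fell from 9.97 to 10.66 over the 6 week 2 arrays to 8.81 to 9.05 at week 3, a change of -1.39 (SE 0.33; adjusted p = 0.0073). The cytoskeletal genes fell by less. Stmn2, which destabilises microtubules in growth cones, changed by -0.61 (SE 0.13; adjusted p = 0.00268), Tubb5, a beta-tubulin, by -0.56 (SE 0.10; adjusted p = 0.00113), and Marcksl1, a kinase substrate related to Marcks, by -0.68 (SE 0.16; adjusted p = 0.00564). Ncam1, the neural cell adhesion molecule, changed by -0.52 (SE 0.12; adjusted p = 0.00593), and Fabp7, the fatty acid binding protein of radial glia, by -0.75 (SE 0.23; adjusted p = 0.032). Fabp7 missed the threshold when week 2 animals 5 and 6 and week 3 animals 3, 5 and 6 were, one at a time, left out (adjusted p up to 0.112).

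Probe sets of 1 gene did not always move together. Of 54 called genes named in the text that had further tested probe sets, 33 had at least 1 of them called in the same direction and 21 had none called. Of the 33, 3 also had 1 or more called the opposite way. The representative probe sets of Dpysl3, Marcks and Sox4 were called lower (Marcks at -0.40, not called against batch 2, and Sox4, a transcription factor of differentiating neurons, at -0.30), while at least 1 other probe set of each was called higher, by up to 0.51 for Dpysl3 (adjusted p = 0.0207), 0.85 for Marcks (adjusted p = 0.0176) and 1.05 for Sox4 (adjusted p = 0.0322). A further Dcx probe set had a change of 1.05 and was not called (adjusted p = 0.116). The changes of the other probe sets of Ncam1, 0.13 and 0.19, Sh3d19, 0.02 and 0.23, Igf1, 0.08, Thra, 0.11, Sdhd, 0.14, and Fn1, 0.10, were above 0 and not called, where the representatives fell. Those of Cxadr, -0.71 and -0.36, had the sign of the representative and were not called. The same held for those of the riser Id4, 0.52 and 0.62. Of the 3 other probe sets of the riser Clu 1 was called higher and 2 were not called. Of the 4 other Dnmt3a probe sets 1 was called lower and 3 were not called, and of the 3 of Npnt 1 was called lower and 2 were not called. Sox11 and Mapt, the 2 members of the list that were called higher, are described with the genes that differed between the week 2 batches. Marcks missed the threshold when week 2 animals 3 and 5 and week 3 animals 2 and 5 were, one at a time, left out (adjusted p up to 0.0672). Sox4 missed the threshold when week 2 animals 3 and 5 and week 3 animals 2, 3 and 6 were, one at a time, left out (adjusted p up to 0.0787).

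**Figure D1:**
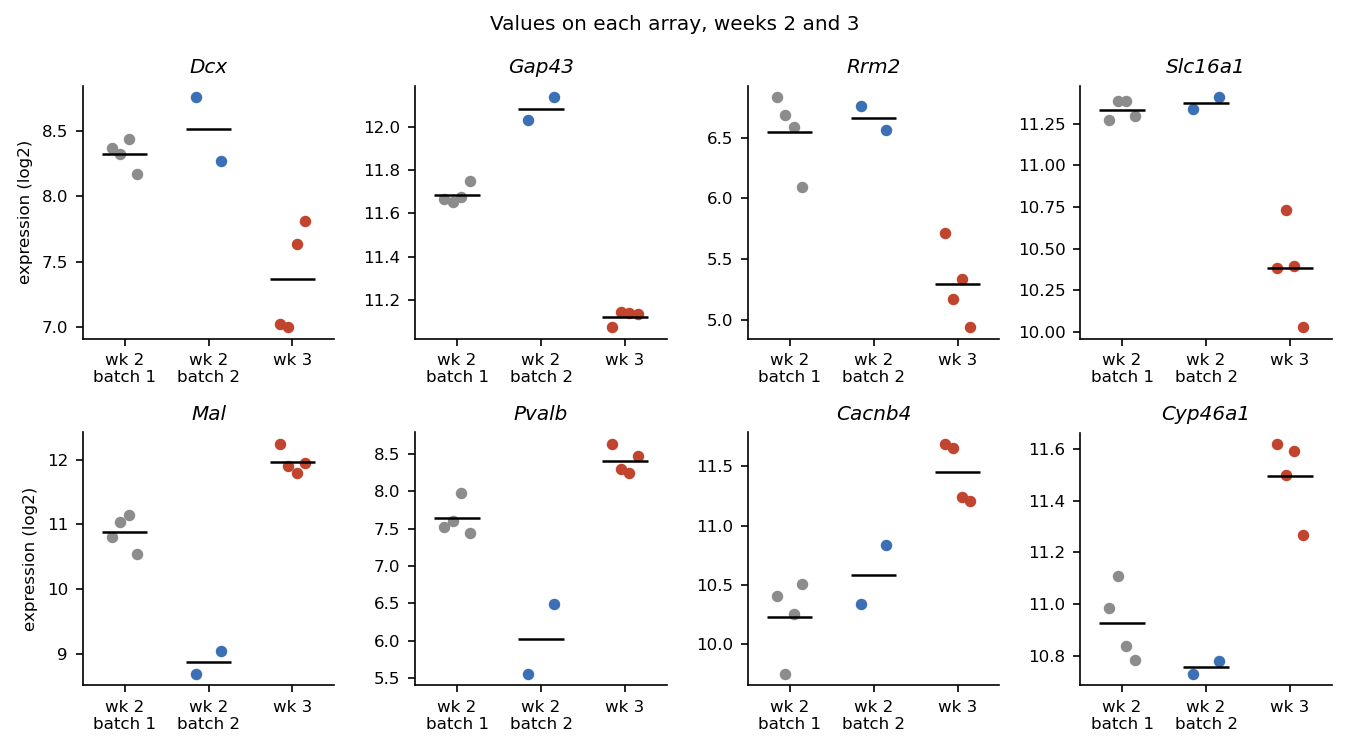
Log2 expression of 8 genes on each array (points) of week 2 batch 1 (grey, n = 4), week 2 batch 2 (blue, n = 2) and week 3 (red, n = 4), with the mean of each group as a line; vertical scales differ between genes. The 4 week 3 values of Dcx, Gap43, Rrm2 and Slc16a1 lie below all 6 week 2 values, and those of Mal, Pvalb, Cacnb4 and Cyp46a1 above them. For Dcx, Rrm2, Slc16a1, Mal, Pvalb and Cacnb4 this lack of overlap was a condition of the naming rule.

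Adhesion molecules and regulators of gene expression were among the strongest single falls. Cxadr is the coxsackievirus and adenovirus receptor, an adhesion molecule of the developing brain. In week 2, Cxadr lay at 7.69, 7.84, 7.82 and 8.53 on the batch 1 arrays and at 9.41 and 9.01 on the batch 2 arrays, and at week 3 it lay at 6.61, 6.60, 6.78 and 6.72. Its fall of 1.53 (SE 0.32), 2.89-fold, was called against all of week 2 (adjusted p = 0.003) and against batch 2 (change -2.53; adjusted p = 0.000121). Nephronectin (Npnt), an integrin ligand of the matrix, changed by -1.36 against all of week 2 (SE 0.26; adjusted p = 0.0017) and -1.79 against batch 2 alone (adjusted p = 0.00174). Cdh13, the membrane-anchored T-cadherin, changed by -1.09 against all of week 2 (SE 0.14; adjusted p = 0.000103) and -0.60 against batch 2 alone (adjusted p = 0.0431). Reelin (Reln), the matrix protein that guides cortical layering, fell from 10.05 to 10.37 at week 2 to 9.73 to 9.97 at week 3, a change of -0.36 (SE 0.09; adjusted p = 0.00785).

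Dnmt3a, the enzyme that sets new DNA methylation in maturing neurons, fell 1.8-fold. At week 3 the arrays gave 9.36, 9.31, 9.49 and 9.26 for Dnmt3a; at week 2 they gave 10.18, 10.04, 10.34 and 10.22 in batch 1 and 10.53 and 10.32 in batch 2. All 4 week 3 values were below the lowest week 2 value, and the change was -0.85 against all of week 2 (SE 0.13; adjusted p = 0.000368) and -1.07 against batch 2 alone (adjusted p = 0.000458). The transcription factor Deaf1 changed by -1.19 against all of week 2 (SE 0.18; adjusted p = 0.000338) and -1.51 against batch 2 alone (adjusted p = 0.000318). Mkrn3, an imprinted RING finger gene whose loss in people brings early puberty, was the top faller by the naming rule. On the week 3 arrays Mkrn3 stood at 3.73, 3.18, 3.20 and 3.34, on the week 2 batch 1 arrays at 4.87, 3.96, 5.58 and 5.83, and on the batch 2 arrays at 6.09 and 6.17. At week 3 all values were below 4, the filter value, so the change of -1.88 (adjusted p = 0.000277) ends near the bottom of the scale. The tetraspanin Tspan6 changed by -1.19 (SE 0.15; adjusted p = 7.74e-05) and the Src-like adaptor Sla by -1.12 (SE 0.13; adjusted p = 5.09e-05). The G protein subunit Gng4 changed by -0.86 (SE 0.23; adjusted p = 0.0153), and Grp, the gastrin-releasing peptide, by -1.15 (SE 0.27; adjusted p = 0.00633). Sh3d19, an SH3 domain adaptor, fell by 2.13 against all of week 2 (adjusted p = 0.0021), but its change of -1.24 against batch 2 was not called (adjusted p = 0.182). Kcne1l, an accessory potassium channel subunit, ranged from 2.96 to 3.07 at week 3, below the filter value, after 3.15 to 4.85 at week 2, a change of -1.20 (SE 0.22; adjusted p = 0.00112).

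Genes of DNA replication fell in part. Of 30 cell cycle and replication genes, 7 fell and 1 rose, where 9.61% of all genes fell and 5.63% rose. The list's median of -0.05 was close to that of all genes, and 4 of the 7 were also called lower against batch 2. Rrm2, the ribonucleotide reductase subunit that limits nucleotide supply in S phase, fell most. Rrm2 read 5.72, 5.17, 5.34 and 4.94 at week 3, 6.83, 6.69, 6.58 and 6.09 in week 2 batch 1 and 6.76 and 6.56 in batch 2. The fall was 2.34-fold, a change of -1.23 against all of week 2 (SE 0.21; adjusted p = 0.000683) and -1.37 against batch 2 alone (adjusted p = 0.00337). The chromatin protein Hmgb2 changed by -0.67 (SE 0.12; adjusted p = 0.00116), the kinase Cdk4 by -0.39 (SE 0.10; adjusted p = 0.0124) and the polymerase clamp Pcna by -0.34 (SE 0.08; adjusted p = 0.0061). The replicative helicase subunits went both ways: Mcm7 changed by -0.68 (SE 0.18; adjusted p = 0.0149) and Mcm3 by 0.34 (SE 0.08; adjusted p = 0.00884), and neither was called against batch 2 (adjusted p = 0.0714 and 0.254).

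Oligodendrocyte precursor genes were called lower in 5 of 11 cases and higher in 1, where 9.61% of all genes were lower and 5.63% higher. The count was unstable: it was 2 after centring on the array medians and 1 to 4 with single arrays left out. It was 1 without week 3 animal 3, 5 or 6, 2 without week 2 animal 3, and 3 without week 2 animal 1, 4, 5 or 6 or week 3 animal 2. Versican (Vcan), a proteoglycan of precursors and of the juvenile matrix, was its firmest member, with 6.45, 6.52, 6.32 and 5.95 at week 3 and 6.99 to 7.50 at week 2. The change of Vcan was -0.95 against all of week 2 (SE 0.16; adjusted p = 0.000827) and -0.76 against batch 2 alone (adjusted p = 0.0301). Pdgfra, the growth factor receptor that defines precursors, changed by -0.29 (SE 0.10; adjusted p = 0.0397), with a change of -0.27 against batch 2 (adjusted p = 0.214). The precursor transcription factor Nkx2-2 changed by -0.40 (SE 0.11; adjusted p = 0.0194). Cspg4, the NG2 proteoglycan, went the other way, at 0.85 (SE 0.20; adjusted p = 0.0078); its level on the batch 2 arrays, 6.40 and 6.999, overlapped with 6.29 to 6.78 at week 3, and the change against batch 2 was -0.14 (adjusted p = 0.786). A further Cspg4 probe set had a change of -0.28 and was not called (adjusted p = 0.296). Nkx2-2 missed the threshold when week 2 animal 3 and week 3 animals 3, 5 and 6 were, one at a time, left out (adjusted p up to 0.0707). Pdgfra missed the threshold when week 2 animals 1, 2, 3, 5 and 6 and week 3 animals 2, 3, 5 and 6 were, one at a time, left out (adjusted p up to 0.0962).

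Some matrix, meningeal and vascular genes fell, where 9.61% of all genes fell and 5.63% rose. Of 30 matrix and meningeal genes 8 fell, 1 rose and 21 were not called (median -0.23; -0.26 against batch 2), and 2 of the 8 were called against batch 2. Those 2 were the fibrillar collagen gene Col3a1, at -1.07 against all of week 2 (SE 0.26; adjusted p = 0.00755) and -1.08 against batch 2 alone (adjusted p = 0.0391), and fibronectin (Fn1), at -0.43 against all of week 2 (SE 0.11; adjusted p = 0.0109) and -0.55 against batch 2 alone (adjusted p = 0.023). Decorin (Dcn), a proteoglycan of fibroblasts and a marker of the meninges, fell from 7.50 to 8.11 at week 2 to 6.98 to 7.18 at week 3, a change of -0.78 (SE 0.18; adjusted p = 0.00624), and of -0.64 against batch 2, which was not called (adjusted p = 0.11). The mean over the whole list was 7.09 to 7.17 at week 3, 7.21 to 7.56 on the week 2 batch 1 arrays and 7.37 to 7.40 on the batch 2 arrays, so every week 3 mean lay below every week 2 mean. In bulk tissue, less RNA per cell and fewer cells of a type cannot be told apart; the part of meninges in the dissected piece was not tested.

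Among 29 endothelial and pericyte genes 5 fell, 1 rose and 23 were not called (median -0.14), where 9.61% of all genes fell and 5.63% rose. Against batch 2, 5 were called lower and 2 higher (median -0.10), where 3.62% of all genes were lower and 4.39% higher. Claudin 5 (Cldn5), the tight junction protein of brain endothelium, stood at 8.98, 8.94, 8.51 and 8.78 at week 3 and at 9.10 to 9.59 at week 2. Its change was -0.66 against all of week 2 (SE 0.15; adjusted p = 0.0051) and -0.63 against batch 2 alone (adjusted p = 0.0216). Kdr, the main receptor for vascular endothelial growth factor, changed by -0.54 (SE 0.13; adjusted p = 0.00648). Cd93, a receptor of angiogenic endothelium, changed by -0.90 (SE 0.22; adjusted p = 0.00776). The insulin-like growth factor Igf1 fell as well, with a change of -0.69 against all of week 2 (SE 0.19; adjusted p = 0.0162) and -0.82 against batch 2 alone (adjusted p = 0.0457).

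**Figure D2:**
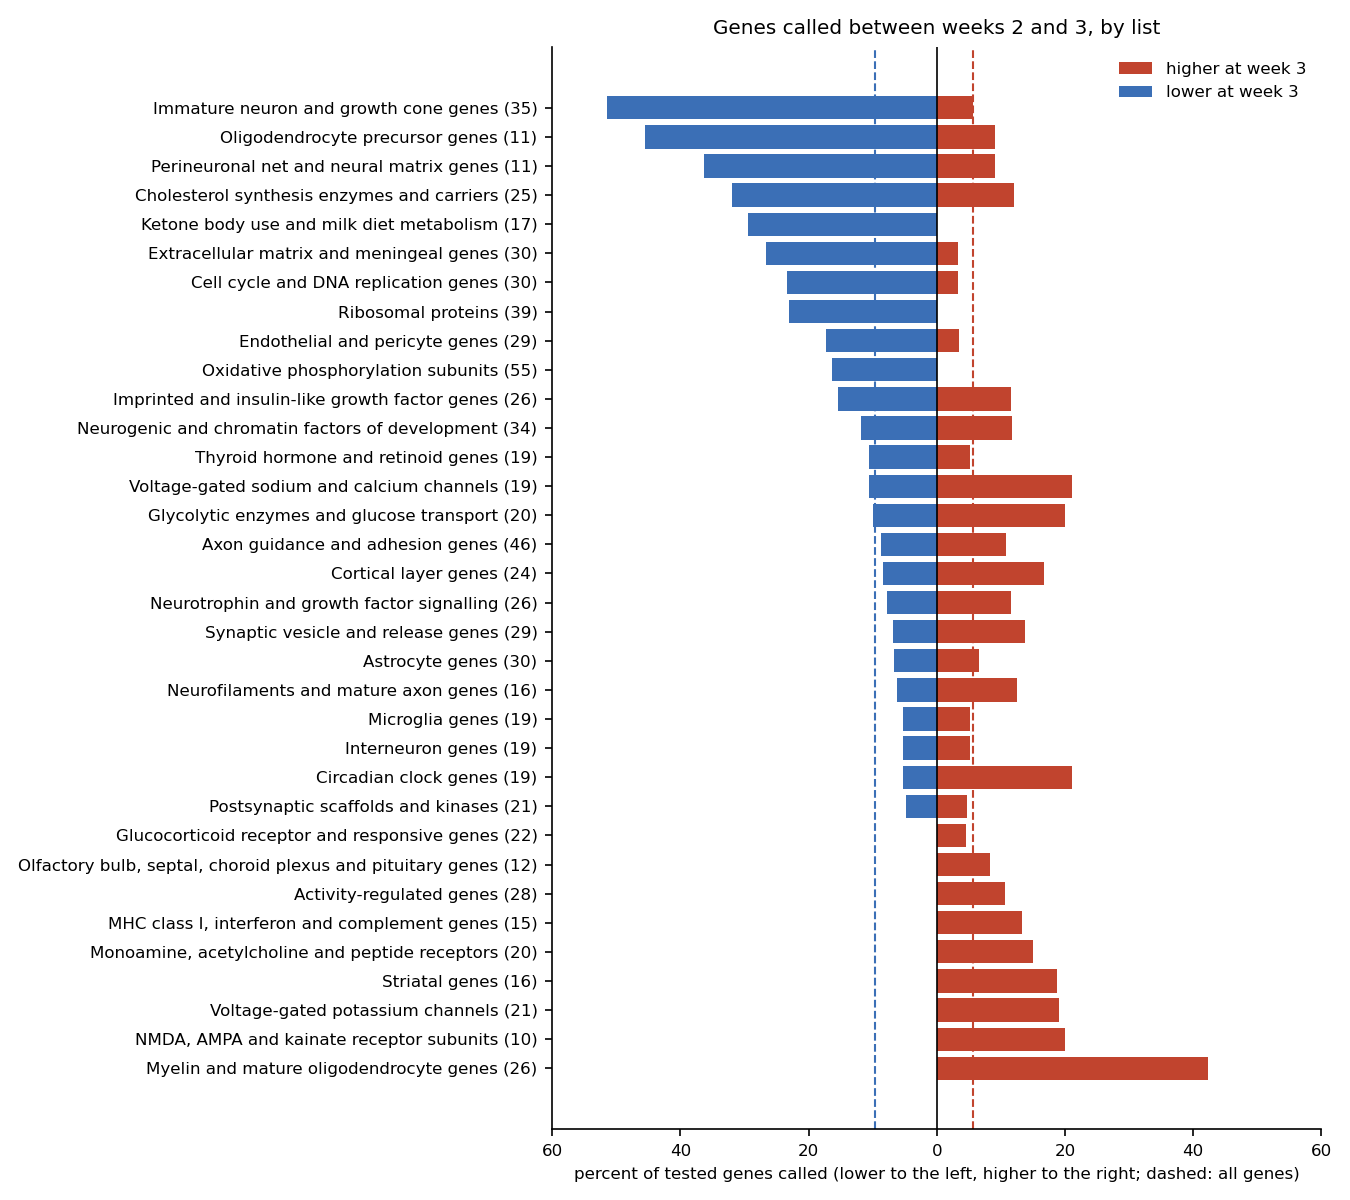
Share of the tested genes of each list with at least 10 tested members that was called lower (blue, to the left) or higher (red, to the right) at week 3, in percent, with the number of tested genes in brackets. Dashed lines mark the shares over all genes, 9.61% lower and 5.63% higher; the longest bars are those of the immature neuron list to the left and of the myelin list to the right.

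Some genes for the use of milk-derived fuels fell. Of 17 genes of ketone body use and milk diet metabolism, 5 fell, 0 rose and 12 were not called by limma. The shares over all genes were 9.61% lower and 5.63% higher, and 3.62% and 4.39% against batch 2. Against batch 2, 3 were called lower and 1 higher, Slc16a3, another monocarboxylate transporter, named here after its values were seen (change 0.35; adjusted p = 0.0442). Slc16a1 encodes the transporter that carries ketone bodies and lactate across the blood-brain barrier. The week 2 batch 1 levels of Slc16a1 were 11.27, 11.39, 11.39 and 11.30, those of batch 2 were 11.34 and 11.41, and those of week 3 were 10.38, 10.73, 10.39 and 10.03. The 6 week 2 values lay close together, and all 4 week 3 values lay below them. The fall was 2.01-fold, a change of -1.004 against all of week 2 (SE 0.12; adjusted p = 6.17e-05) and -0.99 against batch 2 alone (adjusted p = 0.000265). Bdh1 and Acat1, which turn ketone bodies into acetyl-CoA in mitochondria, fell too. Levels of Bdh1 were 9.89, 10.01, 10.18 and 10.09 in the week 3 animals, against 10.65, 10.73, 10.62 and 10.59 in batch 1 and 10.88 and 10.85 in batch 2 of week 2. The change was -0.66 against all of week 2 (SE 0.09; adjusted p = 0.000244) and -0.82 against batch 2 alone (adjusted p = 7.39e-05) for Bdh1 and -0.52 against all of week 2 (SE 0.09; adjusted p = 0.000569) and -0.65 against batch 2 alone (adjusted p = 0.000128) for Acat1. The fatty acid oxidation enzyme Acadl changed by -0.49 (SE 0.15; adjusted p = 0.0294) and Pdha1, a subunit of pyruvate dehydrogenase, by -0.36 (SE 0.08; adjusted p = 0.00354), and neither was called against batch 2 (adjusted p = 0.133 and 0.0597). Acadl missed the threshold when week 2 animal 3 and week 3 animals 3, 5 and 6 were, one at a time, left out (adjusted p up to 0.0908).

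Of 20 glycolytic enzymes and glucose carriers 4 rose, 2 fell and 14 were not called (median 0.01), where 5.63% of all genes rose and 9.61% fell. Against batch 2, 8 were called higher and 1 lower (median 0.23), where 4.39% of all genes were higher and 3.62% lower. The list's counts thus depended on the week 2 reference. Ldha, the lactate dehydrogenase subunit that favours lactate production, fell from 12.09 to 12.23 to 11.64 to 11.72, a change of -0.49 against all of week 2 (SE 0.07; adjusted p = 0.000328) and -0.45 against batch 2 alone (adjusted p = 0.00517). Gpd1, the cytosolic glycerol-3-phosphate dehydrogenase, rose. In week 2, Gpd1 lay at 8.55, 8.21, 8.58 and 8.48 on the batch 1 arrays and at 7.94 and 7.75 on the batch 2 arrays, and at week 3 it lay at 8.89, 9.05, 9.08 and 9.03. Its change was 0.68 against all of week 2 (SE 0.13; adjusted p = 0.00141) and 1.16 against batch 2 alone (adjusted p = 6.65e-06). The 2 other Gpd1 probe sets had changes of 0.49 and 0.05 and were not called by limma (adjusted p = 0.14 and 0.68). The phosphofructokinase subunit Pfkl changed by 0.46 (SE 0.14; adjusted p = 0.0338) and the neuronal enolase Eno2 by 0.44 (SE 0.13; adjusted p = 0.0236). Pfkl missed the threshold when week 2 animal 5 and week 3 animals 2, 3, 5 and 6 were, one at a time, left out (adjusted p up to 0.0831). Eno2 missed the threshold when week 3 animals 2 and 3 were, one at a time, left out (adjusted p up to 0.063). The count of 4 fell to 1 without week 3 animal 3 and to 2 without week 3 animal 2 or 6. Ldha was the 1 gene called lower without week 2 animal 3, 4 or 5 or week 3 animal 2 or 3.

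Of 25 genes of cholesterol synthesis and transport 8 fell, 3 rose and 14 were not called, where 9.61% of all genes fell and 5.63% rose. Against batch 2, 3 were called lower and 2 higher, where 3.62% of all genes were lower and 4.39% higher. The count of fallers depended on the fit, with 3 lower without week 3 animal 3, 4 without week 3 animal 5, and 5 without week 2 animal 4 or after centring on the array medians. The synthetic enzymes Tm7sf2, Fdps and Dhcr7 changed by -0.93 (SE 0.24; adjusted p = 0.0115), -0.42 (SE 0.11; adjusted p = 0.0155) and -0.33 (SE 0.09; adjusted p = 0.0219), and these 3 were called against batch 2 too. Cyp46a1, the neuronal enzyme that clears cholesterol from the brain as a hydroxylated sterol, rose. At week 3 the arrays gave 11.62, 11.50, 11.59 and 11.27 for Cyp46a1; at week 2 they gave 10.98, 11.11, 10.84 and 10.78 in batch 1 and 10.73 and 10.78 in batch 2. The week 3 values lay above all week 2 values, and the change was 0.67 against all of week 2 (SE 0.12; adjusted p = 0.000936) and 0.74 against batch 2 alone (adjusted p = 0.0005). The sterol exporter Abcg1 changed by 0.35 against all of week 2 (SE 0.09; adjusted p = 0.0118) and 0.55 against batch 2 alone (adjusted p = 0.00422). Fdps missed the threshold when week 3 animal 3 was left out (adjusted p = 0.0546). Dhcr7 missed the threshold when week 2 animals 3 and 4 and week 3 animals 3 and 5 were, one at a time, left out (adjusted p up to 0.0697).

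Respiratory chain and ribosomal protein genes were called in part, and each called member was lower in the fits against all of week 2 and against batch 2. The shares of all genes called lower in these fits were 9.61% and 3.62%. Of 55 oxidative phosphorylation genes 9 fell (median -0.10), 3 of them also against batch 2. The ATP synthase subunit Atp5g1 changed by -0.42 (SE 0.08; adjusted p = 0.00179) and the succinate dehydrogenase subunit Sdhd by -0.31 (SE 0.08; adjusted p = 0.0138). Sdhd missed the threshold when week 3 animal 5 was left out (adjusted p = 0.0522). Of 39 ribosomal protein genes 9 fell (median -0.12), 5 after centring on the medians, 5 without week 2 animal 4, and 4 without week 3 animal 2 or 3. Rplp0, an acidic protein of the large subunit, had the firmest change, -0.47 against all of week 2 (SE 0.09; adjusted p = 0.00204) and -0.70 against batch 2 alone (adjusted p = 0.0007).

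Genes of myelin formed the list with the largest share of members called higher among the lists with at least 10 tested genes. Of 36 listed genes of myelin and mature oligodendrocytes 26 were measured, of which 11 rose and 0 fell by limma, and all 11 were also called higher against the week 2 batch 2 arrays, where 19 of the list were called. The list's median change was 0.46 against all of week 2 and 0.76 against batch 2. Of all genes, 5.63% rose against all of week 2 and 4.39% against batch 2. Mal, a proteolipid of compact myelin, rose 2.9-fold. On the week 3 arrays Mal stood at 12.24, 11.90, 11.79 and 11.94, on the week 2 batch 1 arrays at 10.80, 11.03, 11.14 and 10.54, and on the batch 2 arrays at 8.70 and 9.05. The 3 groups were apart, with batch 2 lowest and week 3 highest, and the change was 1.53 against all of week 2 (SE 0.38; adjusted p = 0.00987) and 3.09 against batch 2 alone (adjusted p = 2.95e-07). A further Mal probe set had a change of 1.08 and was not called (adjusted p = 0.0579). Mobp, a basic protein of central myelin, rose 2.06-fold. Mobp read 12.36, 12.22, 12.004 and 11.99 at week 3, 11.13, 11.36, 11.66 and 11.48 in week 2 batch 1 and 10.24 and 10.36 in batch 2. Its change was 1.04 against all of week 2 (SE 0.32; adjusted p = 0.0291) and 1.84 against batch 2 alone (adjusted p = 0.000388). Ndrg1, a protein of the Schwann cell and oligodendrocyte cytoplasm, changed by 1.04 against all of week 2 (SE 0.21; adjusted p = 0.00234) and 1.59 against batch 2 alone (adjusted p = 6.33e-05).

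The membrane and lipid genes of the list rose by less than Mal. The tight junction protein of myelin Cldn11 changed by 0.86 (SE 0.29; adjusted p = 0.045), Fa2h, which hydroxylates the fatty acids of myelin galactolipids, by 0.76 (SE 0.21; adjusted p = 0.0186), and Plekhb1 by 0.78 (SE 0.24; adjusted p = 0.03). The phosphodiesterase Pde8a changed by 0.99 (SE 0.29; adjusted p = 0.0234) and Aspa, the enzyme that splits N-acetylaspartate, by 0.80 (SE 0.27; adjusted p = 0.0495). Septin4, Qdpr, an enzyme of pterin recycling, and Car2, a carbonic anhydrase, had the smallest called rises, at 0.57, 0.39 and 0.38. The representative probe set of Mbp, the major basic protein, was not called: it ranged from 14.53 to 14.999 at week 2 and from 14.94 to 15.08 at week 3, near the top of the scale, with a change of 0.26 (SE 0.11; adjusted p = 0.119). Of its other 7 probe sets 1 was called higher, by 2.02 (adjusted p = 0.000741), with means of 4.21 in batch 1, 6.92 in batch 2 and 6.43 at week 3; its change against batch 2, -0.49, was not called (adjusted p = 0.546). Mog, a late surface protein of myelin, had a change of 0.89 (SE 0.30; adjusted p = 0.0502) against all of week 2 and of 1.71 against batch 2 (adjusted p = 0.000195). Mobp missed the threshold when week 2 animal 3 and week 3 animals 2, 3 and 5 were, one at a time, left out (adjusted p up to 0.0709). Cldn11 missed the threshold when week 2 animals 1, 2 and 6 and week 3 animals 2, 3, 5 and 6 were, one at a time, left out (adjusted p up to 0.101). Aspa missed the threshold when week 2 animals 1, 2, 3 and 6 and week 3 animals 3, 5 and 6 were, one at a time, left out (adjusted p up to 0.125). Plekhb1 missed the threshold when week 3 animals 2, 5 and 6 were, one at a time, left out (adjusted p up to 0.0772). Pde8a missed the threshold when week 3 animals 3, 5 and 6 were, one at a time, left out (adjusted p up to 0.0529). Car2 missed the threshold when week 3 animals 2, 3 and 6 were, one at a time, left out (adjusted p up to 0.087). Mog passed the threshold when week 2 animals 4 and 5 were, one at a time, left out (adjusted p up to 0.0328). The count of 11 depended on the arrays in the fit. It was 7 without week 3 animal 2, 6 without week 3 animal 3, 5 or 6, and 7 without week 2 animals 2 and 6, the arrays with the lowest striatal means. Without week 2 animal 1, 2, 3 or 6 it was 9. The count was higher, at 14, without week 2 animal 4 and after centring on the array medians, and 12 without week 2 animal 5. When scan day replaced batch as a random block it was 0 by limma, where 112 probe sets were called in all.

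**Figure D3:**
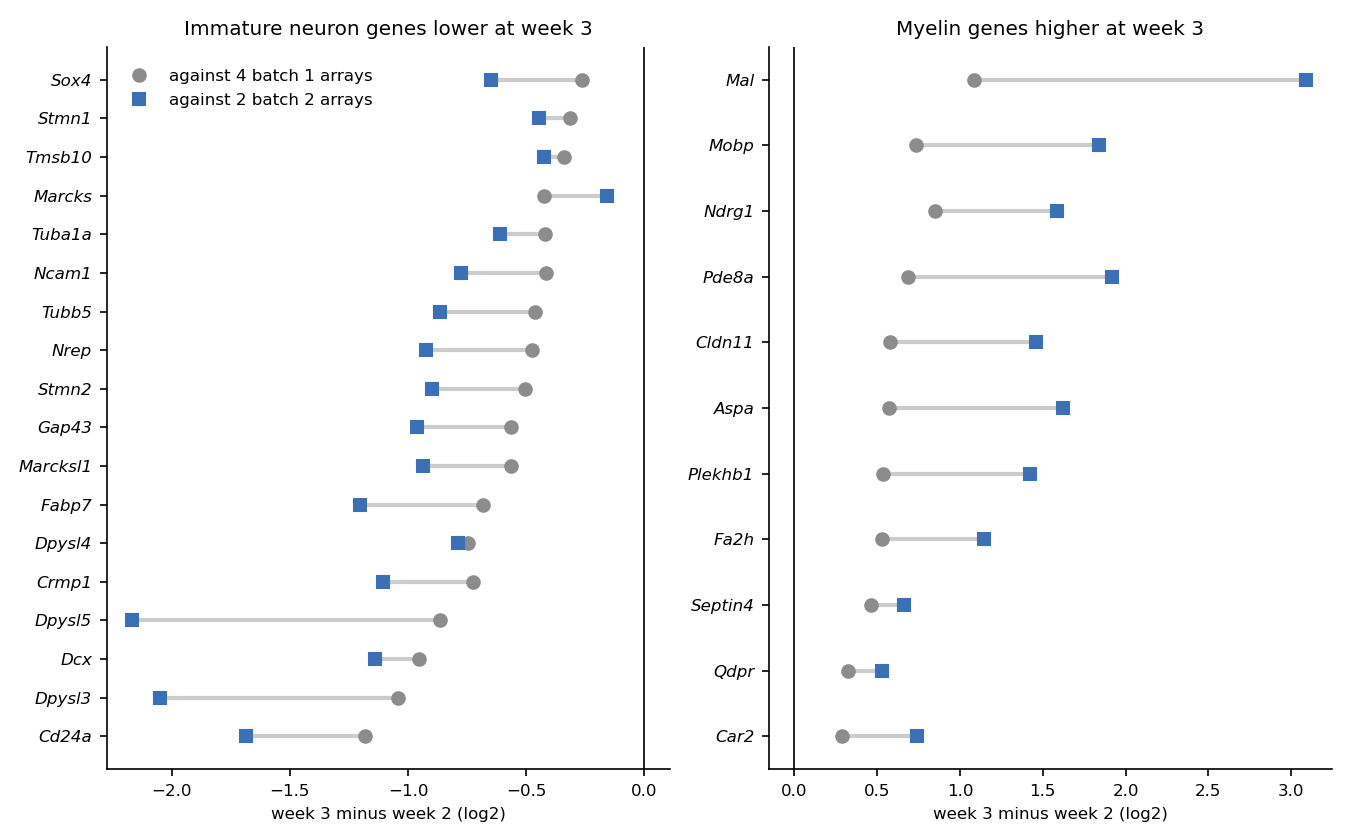
Fitted log2 change from week 2 to week 3 of the 18 immature neuron genes called lower (left) and the 11 myelin genes called higher (right), against the 4 week 2 batch 1 arrays (grey circles) and against the 2 batch 2 arrays (blue squares), which share the 4 week 3 arrays. All points lie on 1 side of 0, which is largely set by the choice of genes. They were chosen as called in the fit against all of week 2, which holds both batches. The batch 2 point is farther from 0 for every gene but Marcks.

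Promoter sequences are shown for 2 rising genes and 1 falling gene because these genes belong to the groups that moved together. Each is the 250 bases before the RefSeq transcription start on GRCm38.p6, read on the gene's strand, with the hexamer ACAAAG, the core of the site that SOX factors bind, in capitals on either strand (CTTTGT on the other). Across all 32851 RefSeq promoters of this length 16.5% held the hexamer. Of the 11 risen myelin genes 8 were in the table, with 12 promoters, and 3 of these (25.0%) held it, those of Mobp, Plekhb1 and Septin4. Of the 18 fallen immature neuron genes 9 were in the table, with 13 promoters, and 5 of these (38.5%) held it, from Crmp1, Dcx, Dpysl5 and Tubb5. These shares rest on few promoters, and promoters of 1 gene can overlap. A match is a description of these letters and not a bound site. The Mobp promoter held 6 copies, the Dpysl5 promoter 1 and the Mal promoter 0.
Mobp, chr9:120149492-120149741, plus strand: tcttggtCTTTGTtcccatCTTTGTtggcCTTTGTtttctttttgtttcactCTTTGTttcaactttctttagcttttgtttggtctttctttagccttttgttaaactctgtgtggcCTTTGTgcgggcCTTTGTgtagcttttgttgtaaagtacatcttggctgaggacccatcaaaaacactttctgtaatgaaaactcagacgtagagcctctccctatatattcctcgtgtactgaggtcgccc
Mal, chr2:127656696-127656945, minus strand: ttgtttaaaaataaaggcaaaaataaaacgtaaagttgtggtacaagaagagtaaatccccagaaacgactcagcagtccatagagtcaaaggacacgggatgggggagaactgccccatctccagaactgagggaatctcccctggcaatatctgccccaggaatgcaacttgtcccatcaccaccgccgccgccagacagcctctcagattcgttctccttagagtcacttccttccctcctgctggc
Dpysl5, chr5:30711314-30711563, plus strand: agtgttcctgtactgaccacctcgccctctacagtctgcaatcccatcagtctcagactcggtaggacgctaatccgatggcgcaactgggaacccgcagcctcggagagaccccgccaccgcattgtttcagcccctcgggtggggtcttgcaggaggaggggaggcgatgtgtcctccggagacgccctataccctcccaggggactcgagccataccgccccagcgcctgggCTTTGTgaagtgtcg

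Parvalbumin (Pvalb), the calcium-binding protein of fast-spiking interneurons, rose 2.09-fold. The week 2 batch 1 levels of Pvalb were 7.52, 7.60, 7.98 and 7.44, those of batch 2 were 5.56 and 6.49, and those of week 3 were 8.63, 8.29, 8.24 and 8.47. The week 3 values were above all week 2 values, and the batch 2 animals were lowest. The change was 1.07 against all of week 2 (SE 0.28; adjusted p = 0.0143) and 2.38 against batch 2 alone (adjusted p = 4.71e-06). Of 19 interneuron genes tested, Pvalb was the 1 called higher and Reln the 1 called lower, where 5.63% of all genes rose and 9.61% fell. Somatostatin (Sst) had a change of -0.10 (SE 0.07; adjusted p = 0.381) and the peptide Vip one of -0.17 (SE 0.18; adjusted p = 0.561). Gad1, the main enzyme of GABA synthesis, had a change of 0.45 (SE 0.16; adjusted p = 0.0648) and one of 0.76 against batch 2 (adjusted p = 0.00896).

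Of 19 sodium and calcium channel genes 4 rose and 2 fell, where 5.63% of all genes rose and 9.61% fell. Cacnb4, the beta-4 subunit that brings calcium channels to the membrane, rose 2.31-fold. Levels of Cacnb4 were 11.69, 11.65, 11.24 and 11.21 in the week 3 animals, against 10.41, 9.75, 10.26 and 10.51 in batch 1 and 10.34 and 10.83 in batch 2 of week 2. The change was 1.21 against all of week 2 (SE 0.15; adjusted p = 7.74e-05) and 0.86 against batch 2 alone (adjusted p = 0.00969). This probe set was called under all 28 alternative settings. Another Cacnb4 probe set, called higher by 1.61, had means of 7.93 in batch 1, 9.465 in batch 2 and 9.71 at week 3. Its change against batch 2, 0.24, was not called (adjusted p = 0.751). Scn1a, the sodium channel that carries much of the firing of parvalbumin interneurons, changed by 0.42 against all of week 2 (SE 0.09; adjusted p = 0.00265) and 0.65 against batch 2 alone (adjusted p = 0.00132). Another Scn1a probe set, called higher by 1.60, had means of 7.10 in batch 1, 8.50 in batch 2 and 8.82 at week 3. Its change against batch 2, 0.33, was not called (adjusted p = 0.586). By their representative probe sets, Cacnb4 and Scn1a were the members called against batch 2 as well. Snap25, the SNARE protein of synaptic vesicle release, changed by 0.33 against all of week 2 (SE 0.11; adjusted p = 0.0385) and 0.60 against batch 2 alone (adjusted p = 0.0108). Snap25 missed the threshold when week 2 animals 3, 4 and 5 and week 3 animals 2, 3, 5 and 6 were, one at a time, left out (adjusted p up to 0.103).

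The remaining genes of the naming rule that rose belonged to no single list. Endod1, an endonuclease-like gene, rose 3.17-fold. In week 2, Endod1 lay at 7.50, 7.98, 7.80 and 8.27 on the batch 1 arrays and at 8.67 and 8.76 on the batch 2 arrays, and at week 3 it lay at 9.67, 9.63, 9.65 and 9.46. Its change was 1.66 against all of week 2 (SE 0.18; adjusted p = 4.86e-05) and 0.89 against batch 2 alone (adjusted p = 0.0218). Lpar1, a receptor for lysophosphatidic acid that oligodendrocytes use, had a narrow week 3 group at 8.95, 9.04, 8.999 and 9.05 against 7.71 to 8.25 at week 2, and its change was 1.20 against all of week 2 (SE 0.18; adjusted p = 0.000418) and 0.98 against batch 2 alone (adjusted p = 0.0113). Epop, a partner of the Polycomb complex, changed by 1.22 against all of week 2 (SE 0.23; adjusted p = 0.00145) and 1.000 against batch 2 alone (adjusted p = 0.0355). Id4, an inhibitor of basic helix-loop-helix factors in glial precursors and astrocytes, changed by 1.08 (SE 0.23; adjusted p = 0.00362), with 0.80 against batch 2 (adjusted p = 0.101). Tent5c, a poly(A) polymerase, changed by 1.38 against all of week 2 (SE 0.36; adjusted p = 0.0135) and 1.74 against batch 2 alone (adjusted p = 0.0297). Chic1 ranged from 4.25 to 4.74 at week 3 and from 3.06 to 3.82, below the filter value, at week 2, a change of 1.09 (SE 0.18; adjusted p = 0.000538).

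Alas2, the erythroid enzyme that starts haem synthesis, rose 2.05-fold. At week 3 the arrays gave 7.26, 7.03, 8.03 and 7.62 for Alas2; at week 2 they gave 6.13, 7.004, 6.55 and 6.23 in batch 1 and 5.45 and 6.21 in batch 2. The change was 1.04 against all of week 2 (SE 0.29; adjusted p = 0.0171) and 1.66 against batch 2 alone (adjusted p = 0.00939). Alas2 missed the threshold when week 3 animal 5 was left out (adjusted p = 0.0727). Hba-a1 ranged from 2.43 to 2.56, and the mean over 5 blood cell genes was 5.34 to 5.76 at week 3, 4.997 to 5.22 on the week 2 batch 1 arrays and 4.87 to 5.14 on the batch 2 arrays; every week 3 mean lay above every week 2 mean, and Alas2 is itself 1 of the 5. The part of blood in the rise was not tested. Igfbp6, which binds insulin-like growth factor II, stood at 8.17, 7.91, 7.83 and 8.07 at week 3, at 7.25, 7.26, 7.34 and 7.35 on the batch 1 arrays and at 5.11 and 5.73 on the batch 2 arrays. Its change was 0.97 against all of week 2 (SE 0.26; adjusted p = 0.0131) and 2.58 against batch 2 alone (adjusted p = 2.52e-07). Clusterin (Clu), an astrocyte chaperone, changed by 0.46 against all of week 2 (SE 0.12; adjusted p = 0.0118) and 1.07 against batch 2 alone (adjusted p = 2.69e-05). The clock output factor Dbp changed by 0.73 against all of week 2 (SE 0.24; adjusted p = 0.0447) and 1.38 against batch 2 alone (adjusted p = 0.00857). Dbp missed the threshold when week 2 animals 1, 2, 5 and 6 and week 3 animals 2, 5 and 6 were, one at a time, left out (adjusted p up to 0.131). Of the hormone receptors, the thyroid hormone receptor Thra changed by -0.43 against all of week 2 (SE 0.07; adjusted p = 0.000429) and -0.37 against batch 2 alone (adjusted p = 0.0113) and the retinoid X receptor Rxra by 0.42 against all of week 2 (SE 0.13; adjusted p = 0.0375) and 0.70 against batch 2 alone (adjusted p = 0.00219). Rxra missed the threshold when week 2 animals 2 and 6 and week 3 animals 2, 3, 5 and 6 were, one at a time, left out (adjusted p up to 0.102).

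A further set of genes was put together here after their values were seen. They were higher at week 3 and on the week 2 batch 2 arrays than on the batch 1 arrays. Kcnc1, a potassium channel of fast-firing neurons, had the largest fitted rise of the potassium channels, 6.33-fold. On the week 3 arrays Kcnc1 stood at 8.95, 9.17, 9.38 and 9.40, on the week 2 batch 1 arrays at 6.75, 6.81, 6.73 and 5.66, and on the batch 2 arrays at 7.76 and 8.56. Against batch 2 its change was 1.06 and was not called (adjusted p = 0.172), and the 2 batches of week 2 differed by 1.67 (adjusted p = 0.0293). Of 21 potassium channel genes 4 rose and 0 fell, where 5.63% of all genes rose and 9.61% fell, and 0 of the 4 were called against batch 2 (limma). Kcnh1 stood at 8.87, 8.89, 8.73 and 9.28 at week 3, at 7.11, 7.35, 6.94 and 6.95 on the batch 1 arrays and at 8.54 and 8.97 on the batch 2 arrays. Its change of 1.71 against all of week 2 (adjusted p = 0.00259) became 0.18 against batch 2 (adjusted p = 0.873). The axonal channel Kcna1 changed by 1.68 (adjusted p = 0.000489) and 0.40 (adjusted p = 0.54) in the same order. For Kcnc1 and Kcna1 every week 3 value lay above both batch 2 values.

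Kif5c encodes a kinesin motor of axonal transport. Kif5c read 11.18, 10.99, 11.16 and 11.17 at week 3, 9.30, 9.59, 9.04 and 8.61 in week 2 batch 1 and 11.02 and 11.38 in batch 2. Week 3 and batch 2 overlapped, and both lay above batch 1: the change was 1.68 against all of week 2 (adjusted p = 0.00645), -0.07 against batch 2 (adjusted p = 0.951), and 2.06 between the batches (adjusted p = 0.005). Another Kif5c probe set did not show this pattern: its means were 8.60 in batch 1, 8.71 in batch 2 and 7.39 at week 3, and its change of -1.26 was not called (adjusted p = 0.155). Scn2a, the sodium channel of immature axons and excitatory neurons, changed by 1.27 (adjusted p = 0.00156) and by -0.04 against batch 2 (adjusted p = 0.962). Mapt, which encodes tau, changed by 1.07 (adjusted p = 0.00145) and -0.16 (adjusted p = 0.786). Sox11, a transcription factor of newborn neurons, changed by 1.16 (adjusted p = 5.09e-05) and 0.002 (adjusted p = 0.997). Rorb, a nuclear receptor of layer 4 neurons, changed by 2.05 (adjusted p = 0.00599) and -0.81 (adjusted p = 0.444). The vesicle protein Sv2a changed by 0.71 (adjusted p = 0.000338) and 0.20 (adjusted p = 0.449). In these 6 genes the batches of week 2 were called different, with adjusted p between 6.5e-05 and 0.0215. Fbxo32, a ubiquitin ligase subunit of muscle and brain, and Cnnm1 lay between the 2 patterns, with changes of 2.43 and 2.35 (adjusted p = 9.23e-05 and 0.000278) and of 1.05 and 0.82 against batch 2 (adjusted p = 0.119 and 0.3). On the batch 1 arrays Fbxo32 ranged from 3.53 to 3.79 and Rorb from 3.17 to 3.56, below the filter value of 4. The further probe sets of Mapt, at -0.09 and 0.16, and of Scn2a, at -0.24, were not called either (adjusted p = 0.751, 0.467 and 0.603). The actin difference was 1.37 to 1.51 on the batch 1 arrays, 0.90 to 1.08 on the batch 2 arrays and 1.07 to 1.24 at week 3. On the later arrays it was 1.50 to 2.28 at week 4, 1.16 to 1.69 at week 5 and 1.43 to 1.78 at week 10. With the actin difference as a covariate in the fit over all of week 2, Kcnc1, Kcnh1, Kcna1 and these 6 genes were called higher, with changes from 0.72 to 2.56. The covariate was not used in the comparison with batch 2, so that fit does not bear on the difference between the batches. Neither the part of scan day nor that of RNA integrity in the difference between the week 2 batches was tested.

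**Figure D4:**
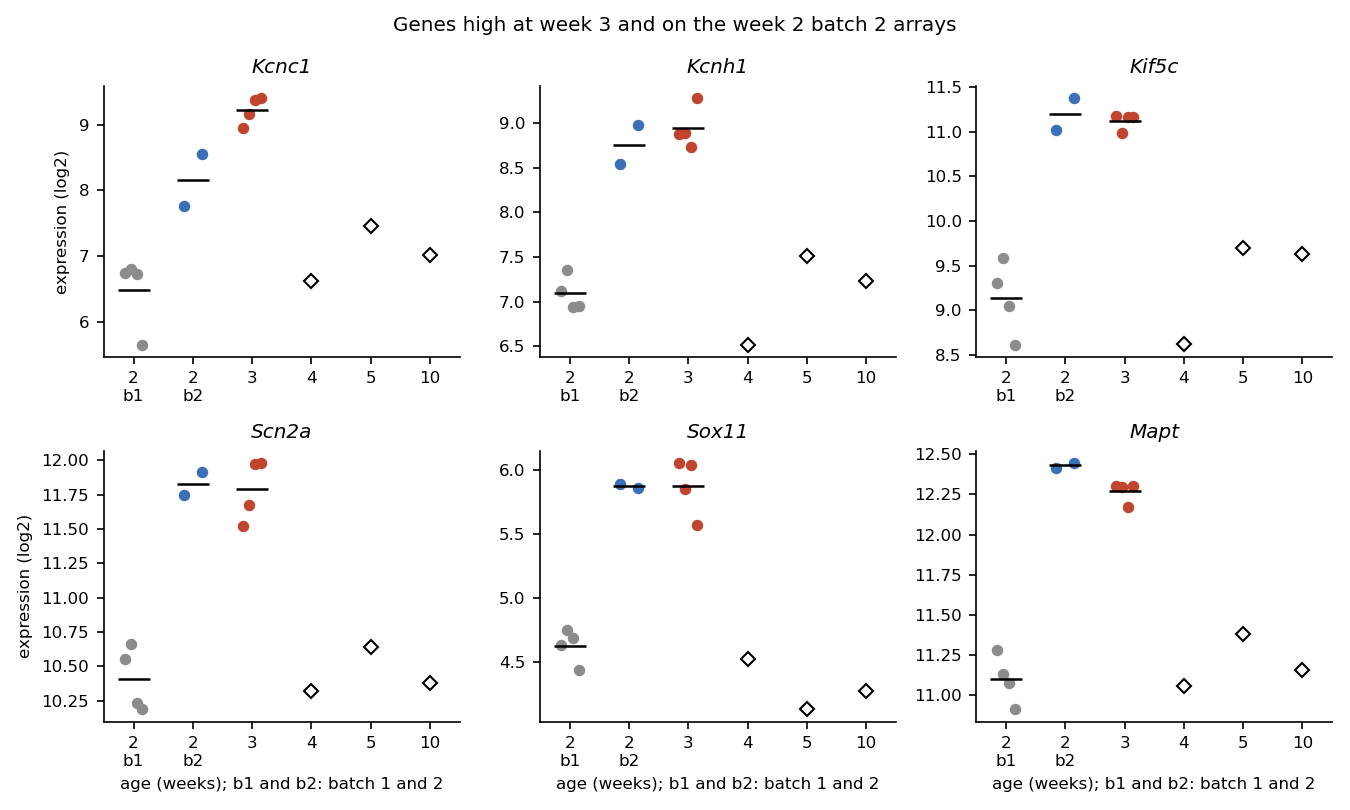
Log2 expression of 6 genes on each array of week 2 batch 1 (b1, grey, n = 4), week 2 batch 2 (b2, blue, n = 2) and week 3 (red, n = 4), with group means as lines, and the mean of weeks 4, 5 and 10 as open diamonds. For Kif5c, Kcnh1, Scn2a and Sox11 the week 3 arrays overlap with those of batch 2, Mapt is slightly lower at week 3 than on batch 2, and Kcnc1 is higher. The later means lie nearer to batch 1, except the week 5 mean of Kcnc1, which lies nearer to batch 2. The week 5 mean is over 3 batch 1 and 2 batch 2 arrays.

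Receptor subunits and genes that respond to neuronal activity were compared with the shares over all genes, 5.63% called higher and 9.61% lower. Of 10 measured glutamate receptor subunits 2 rose and 0 fell, Gria2, the AMPA subunit that blocks calcium entry, by 0.42 (adjusted p = 0.0116) and Grin2c by 0.39 (adjusted p = 0.0397). Neither was called against batch 2, where the changes were 0.004 and 0.24 (adjusted p = 0.994 and 0.406). Grin2b, the juvenile NMDA subunit, had a change of -0.81 (SE 0.31; adjusted p = 0.0844). Of 8 GABA-A subunits and chloride carriers 1 fell, Gabrb1, with a change of -0.56 (SE 0.15; adjusted p = 0.0137) and of -0.14 against batch 2 (adjusted p = 0.754). Slc12a5, the chloride exporter that makes GABA inhibitory, had a change of 0.14 (SE 0.07; adjusted p = 0.199) and of 0.34 against batch 2 (adjusted p = 0.0205). Of 28 activity-regulated genes 3 rose and 0 fell: Nr4a2 by 0.77 (adjusted p = 0.00114), Inhba by 0.46 (adjusted p = 0.0185) and Jund by 0.34 (adjusted p = 0.0221). None of the 3 was called by limma against batch 2 (adjusted p from 0.0682 to 0.841). The immediate early genes Fos and Arc had changes of -0.01 (SE 0.33; adjusted p = 0.984) and -0.03 (SE 0.57; adjusted p = 0.976), and the neurotrophin Bdnf one of 0.04 (SE 0.08; adjusted p = 0.797). Grin2c missed the threshold when week 2 animals 1, 2, 3, 5 and 6 and week 3 animals 3, 5 and 6 were, one at a time, left out (adjusted p up to 0.153). Grin2b passed the threshold when week 2 animal 4 was left out (adjusted p = 0.0251). Gabrb1 missed the threshold when week 3 animal 3 was left out (adjusted p = 0.0647). Inhba missed the threshold when week 3 animal 2 was left out (adjusted p = 0.0514). Jund missed the threshold when week 3 animals 5 and 6 were, one at a time, left out (adjusted p up to 0.0906).

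Arc differed widely among the week 2 animals, from 8.72 to 10.26, against 9.13 to 9.80 at week 3. Of the microglial receptors, P2ry12 changed by -0.65 against all of week 2 (SE 0.13; adjusted p = 0.00186) and -0.52 against batch 2 alone (adjusted p = 0.0561), and Cx3cr1 by 0.79 against all of week 2 (SE 0.17; adjusted p = 0.00324) and 0.13 against batch 2 alone (adjusted p = 0.783). Nefl, the light chain of neurofilaments, fell, at -0.34 against all of week 2 (SE 0.07; adjusted p = 0.00201) and -0.51 against batch 2 alone (adjusted p = 0.000945).

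Of 16 striatal genes 3 rose, Pde10a by 1.74 (adjusted p = 0.00403), Meis2 by 0.76 (adjusted p = 0.00119) and Foxp1 by 0.56 (adjusted p = 0.00674), and 0 of the list were called against batch 2 by limma. The median over the list was 0.59, and 0.76 against batch 2. Of all genes, 5.63% rose against all of week 2 and 4.39% against batch 2. Rgs9, a regulator of striatal signalling, had a change of 0.68 (SE 0.49; adjusted p = 0.364) over a week 2 range of 8.44 to 10.02. The part of striatal tissue in other results was not tested beyond the fit without week 2 animals 2 and 6, in which 2574 probe sets were called.

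The later means of the 15 risers and 15 fallers named first are described here without a share over all genes. These genes were chosen for their week 2 and week 3 values. For risers that choice by itself favours later means below week 3, and for fallers later means below week 2. Of the 15 genes named first among those that fell, all 15 had a week 10 mean below the week 2 mean, and 13 a week 10 mean below that of week 3. Of the 15 that rose, 13 had a week 10 mean below that of week 3 and 6 a week 10 mean below that of week 2. Lpar1 went from 9.01 at week 3 to 8.15 at week 4 and 7.90 at week 10, and Tent5c from 6.77 to 5.32 and 3.59. Ndrg1 and Pvalb were the 2 whose week 10 means, 9.48 and 8.61, lay above their week 3 means of 8.42 and 8.41. Among the fallers, Cd24a went from 8.90 at week 3 to 7.24 at week 10 and Slc16a1 from 10.38 to 9.49. These later means are shown as levels without a test, and they share the scan-day differences described above.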

How the data were processed

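RNA from prefrontal cortex was hybridised to Affymetrix MOE430A arrays, 1 per animal. Per the submitters' processing notes, the deposited log2 values were made by the authors with GCRMA (version not given in the sources used here), which corrects background by probe sequence, normalises arrays by quantiles and summarises each probe set. Quantile normalisation makes the arrays' distributions alike, so a shift common to most genes would not show. All columns matched a sample (0 did not). Arrays give no counts, so precision is limited by the number of arrays, 4 at week 3 and 6 at week 2.

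Of 22690 probe sets, 64 controls were dropped and those with log2 of at least 4 on at least 4 of the 23 arrays were kept (16103, 71%). A probe set was named only where the platform annotation gave 1 symbol (20393; 691 had several and 1606 none), and a gene was represented by its probe set with the highest mean (9198 genes). limma 3.58.1 in R 4.3.3 fitted a mean for each of 5 ages plus batch over all arrays (lmFit, eBayes; Benjamini-Hochberg adjustment over all probe sets; adjusted p under 0.05), after a test on simulated data. Every adjusted p in the text is limma's. A further fit with a mean for each age and batch gave the comparisons with week 2 batch 1 and batch 2. p-values measure the spread between animals, whose litters are not labelled. Actin values were compared with an exact permutation test (scipy 1.17.1).

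Named genes are 15 risers and 15 fallers, taken from called genes whose arrays did not overlap and ranked by the smaller of the differences from the batch 1 and batch 2 means, and members of 36 gene lists. Members and lists were chosen with earlier results of these data known. Alternatives covered the batch term, scan day, scaling, filter, variance moderation, array weights, animal number, actin and each array left out; the fit without week 2 animals 2 and 6, the actin test within batch 1 and the alternatives of the batch 2 comparison were chosen after seeing the data. Animal numbers were no pairing: deviations of same-numbered week 2 and week 3 animals correlated at -0.19, -0.18, -0.18 and -0.23. Promoters are from RefSeq (GRCm38.p6).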

Additional observations from a re-analysis of the deposited data

Results flagged for a closer look

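In 244 groups of arrays, those of week 2 and of week 3 for each of 122 named genes, 11 held an array whose gap to its nearest neighbour was large against the group's range by Dixon's criterion, 6 at week 2 and 5 at week 3. Chance flags about 5% of such groups. Week 2 animal 1 accounted for 3 of them. The poly(A) polymerase gene Tent5c was 4.40 in week 2 animal 1, with the others of that age between 5.29 and 5.68. Rplp0, of the ribosome, was 13.20 in week 2 animal 1, with the others of that age between 12.70 and 12.84, and Pdha1, of pyruvate dehydrogenase, was 11.38 in week 2 animal 1, with the others of that age between 11.48 and 11.53. The replication gene Rrm2 was 6.09 in week 2 animal 6, with the others of that age between 6.56 and 6.83. Bdnf was 6.64 in week 2 animal 5, with the others of that age between 6.80 and 6.87, and the nuclear receptor Nr4a2 was 6.77 in week 2 animal 4, with the others of that age between 7.24 and 7.43.

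Week 3 animal 2 accounted for 3 of the week 3 cases. The precursor factor Nkx2-2 was 6.000 in week 3 animal 2, with the others of that age between 5.46 and 5.53. The endothelial receptor Kdr was 5.82 in week 3 animal 2, with the others of that age between 5.46 and 5.48, and the growth cone gene Gap43 was 11.07 in week 3 animal 2, with the others of that age between 11.13 and 11.14. The axonal genes Kif5c and Mapt made up the rest: Kif5c was 10.99 in week 3 animal 3, with the others of that age between 11.16 and 11.18, and Mapt was 12.17 in week 3 animal 5, with the others of that age between 12.30 and 12.30. For Gap43, Kif5c and Mapt the 3 other arrays were nearly equal, so a small gap was enough.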

How the results depend on the processing

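The number of probe sets called, 2570 in the fit as reported, depended most on how scan day was handled. It was 1245 against week 2 batch 2 alone, 1158 with the late scan days as a term instead of batch, 112 with scan day as the random block instead of batch (correlation within days 0.32) and 597 with it beside batch (0.28). It was 4212 with array weights and 1134 at an adjusted p under 0.01, and it ranged from 1782 to 2529 when each array was left out. The count against batch 2 ranged from 298 to 995 over its 6 arrays left out. With animal number as a replicate block it was 2183. The other settings gave 1805 to 2786. Among the named genes called in the fit as reported, the direction of 5 turned against batch 2 (Cspg4 -0.14, Kif5c -0.074, Mapt -0.16, Rorb -0.81, Scn2a -0.043). With the late-scan term that of 4 turned (Gria2 -0.011, Mapt -0.22, Rorb -0.74, Scn2a -0.10). Turns of genes that were not called, such as Arc, Bdnf and Vip against batch 2, are not in these counts. The integrity difference was 0.0296 for Gapdh (exact permutation p = 0.571) where that of actin was -0.10; within batch 1 that of actin was -0.24 (exact permutation p = 0.0286). The cause was not tested. Over the settings of the 122 named genes, 2958 values kept the side of the threshold and, for called genes, the direction. Genes that were not called could change sign among these values, as Arc, Bdnf, Fos and Vip did. The call was lost in 420 values and gained in 24, with 84 of the losses under the scan-day block alone. Of the 111 called genes, 25 stayed called by their representative probe sets under each setting run. Among them were Cacnb4, Cyp46a1, Gpd1 and Lpar1 upward and Gap43, Rrm2, Slc16a1, Bdh1, Dnmt3a and Tubb5 downward. With the scan-day block, the immature neuron genes called lower numbered 3 (6 beside batch) and the myelin genes called higher 0 (1 beside batch). Signal over background limits Mkrn3, Kcne1l and Chic1, whose arrays all lay below the filter value of 4 at 1 of the ages. It also limits Fbxo32 and Rorb, which lay below 4 on every week 2 batch 1 array.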

Other observations

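Among axon guidance and adhesion genes 5 rose and 4 fell of 46 tested (2 risers without week 2 animal 3 or 5, and 3 without week 2 animal 4 or week 3 animal 2, 5 or 6), with Cxadr, Ncam1 and Cdh13 the fallers that were also called against week 2 batch 2. Of neurogenic and chromatin factors of development 4 rose and 4 fell of 34, and 2 of the fallers, Dnmt3a and Sox4, were called against batch 2 as well; the fallers were 2 without week 2 animal 3 or 5 or week 3 animal 2, 3 or 6. Of the perineuronal net and neural matrix genes 1 rose and 4 fell of 11, Reln and Vcan again being the ones called against both references; the fallers were 2 without week 3 animal 6 and after centring on the array medians. Of astrocyte genes 2 rose and 2 fell of 30, with Clu the riser called against both. The clock list had 4 higher and 1 lower of 19, Dbp being the one called against both.

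Of synaptic vesicle and release genes 4 rose and 2 fell of 29, and of these only Snap25 was called against batch 2; the count of risers was 1 without week 2 animal 3 or 5 or without week 3 animal 3, 5 or 6, and 2 without week 2 animal 1 or 4 or week 3 animal 2. Of postsynaptic scaffolds and kinases 1 rose and 1 fell of 21, of neurofilament and mature axon genes 2 rose and 1 fell of 16, and of cortical layer genes 4 rose and 2 fell of 24. Of receptors for monoamines, acetylcholine and peptides 3 rose and 0 fell of 20, and of neurotrophin and growth factor genes 3 rose and 2 fell of 26. Of imprinted and insulin-like growth factor genes 3 rose and 4 fell of 26, of thyroid hormone and retinoid genes 1 rose and 2 fell of 19, of glucocorticoid-responsive genes 1 rose and 0 fell of 22, of class I, interferon and complement genes 2 rose and 0 fell of 15, and of olfactory bulb, septal, choroid plexus and pituitary genes 1 rose and 0 fell of 12. Counts of 1 or 2 members in these lists and in those described above often moved by 1 when single arrays were left out. Over all genes, 5.63% rose and 9.61% fell.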
